A study of Mus musculus with 8 samples.

Results

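Within-limit neutrophils were examined in the arthritic paw joint. They are cells rich in S100a8 and S100a9, the calprotectin subunits of myeloid cells, that stayed under limits set on 4 groups of genes. Cells were kept if they held 250 to 3000 genes and 500 or more UMIs, of which no more than 5% were mitochondrial. A UMI is 1 counted RNA molecule. A within-limit cell had at least 5% of its UMIs from S100a8 and S100a9, under 3% from the granule genes Camp, Ngp and Ltf, under 5 UMIs of Rsad2, Isg15, Ifit1 and Ifit3 (interferon response), under 5 UMIs of Stfa1, Stfa2l1, BC100530 and Gm5483 (stefins, which inhibit cysteine proteases), and under 4 UMIs of Tnf, Ccrl2, Cxcl2, Csf1 and Gadd45b (inflammatory activation). These limits were met by 1312 of 10256 kept cells (12.8%), and by 19.9% of the 6578 cells above the S100a8 and S100a9 floor, which are called neutrophils here. The 5266 other neutrophils reached at least 1 limit.

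Joint CD45+ leukocytes came from 4 Mono+MCTR3 and 4 Mono mice, all C57BL/6. Every mouse received K/BxN serum, which transfers arthritogenic antibodies, on day 0, again on day 2 and again on day 9. Transfer followed on day 12: Mono+MCTR3 mice were given bone marrow monocytes of arthritic donors that had been held for 90 min with 1 nM MCTR3, a lipid mediator of the maresin conjugate family, and Mono mice were given donor monocytes held with vehicle. Paws were taken on day 22. No untreated or non-arthritic mouse was part of the comparison, and the files do not tell transferred cells from those of the host. Mice of a group are numbered by barcode suffix, which does not say which labelled mouse a number is. The mice are separate samples by their labels. Pairs of mice shared 0 to 8 barcodes, and 1 barcode was a within-limit cell in more than 1 mouse.

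Neutrophils mature in the bone marrow in steps that leave a record in their RNA. Primary granule genes come early, then secondary granule genes such as Camp, Ngp and Ltf, then gelatinase genes, while receptors for chemokines and growth factors rise late. Mature cells that meet a stimulus in tissue switch on cytokines, chemokines and the feedback inhibitors of NF-kappaB, the transcription factor that drives many inflammatory genes.

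The cells had been proposed as quiescent mature neutrophils without activation genes, a name their genes bore out only in part. The neutrophil identity held: 1309 of 1312 within-limit cells (99.8%) had at least 10 UMIs of 15 neutrophil genes chosen apart from S100a8 and S100a9. Of the 3678 kept cells below the floor, 18.8% had as many. The median of such UMIs was 92 in within-limit cells and 3 below the floor. It was 30.5 in 28 cells just inside the floor (5 to 6%) and 32 in 23 cells just below it (4 to 5%). The floor thus does not cleanly part neutrophils from other cells. No UMI of Camp, Ngp and Ltf was seen in 495 cells (37.7%). The description as without activation genes did not hold in full, and no resting neutrophils were there to judge quiescence against. Il1b, which encodes the cytokine interleukin-1 beta, and several immediate early genes were abundant in these cells, as set out below. The cells are therefore named by the limits and not by a state.

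The summed levels of B cell, T cell, NK cell, macrophage and dendritic cell markers were lower than in kept cells below the floor. Markers of B cells, T cells, NK cells, macrophages and dendritic cells reached 2 or more UMIs in 21.9% of within-limit cells, 27.9% of other neutrophils and 91.7% of kept cells below the floor, and 12 within-limit cells had 10 or more. In within-limit cells the summed level of the B cell list ranged over 252 to 427 CPM in Mono+MCTR3 mice and 225 to 310 CPM in Mono mice, where CPM is a gene's UMIs scaled to 1000000 for the class and mouse. In kept cells below the floor it was 5781 to 15400 CPM. The monocyte list, which is not in those shares, summed to 582 to 1188 CPM in Mono+MCTR3 mice and 329 to 1062 CPM in Mono mice, against 996 to 1857 CPM in kept cells below the floor. Most of that sum was Ly6c2, at 657 CPM in within-limit cells and 635 CPM below the floor, while Ccr2, a chemokine receptor of inflammatory monocytes, averaged 2.17 CPM and was at 0 in 5 of 8 mice. The part of monocytes in the results was not tested.

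One cell stood apart. In Mono+MCTR3 mouse 2, a within-limit cell of 15032 UMIs held 543 of the 545 Elane UMIs found in all within-limit cells. Elane encodes neutrophil elastase, a primary granule protease. That cell held 3.69% of the UMIs of its mouse's within-limit cells, and the next deepest within-limit cell had 7970 UMIs. It also held all 20 UMIs of Fcnb, a lectin of early neutrophil granules, in that mouse.

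The limits are in whole UMIs, so shallow cells meet them more easily. Within-limit cells had a median of 1497 UMIs and 507.5 genes, against 1865 UMIs and 575 genes in other neutrophils. Neutrophils that reached only the inflammatory limit (2172 cells) were close in depth to the within-limit cells, with a median of 1531.5 UMIs. Those that reached only the granule limit (788 cells) had 4429.5. The stefin limit alone removed 706 cells, the interferon limit alone 53, and 1547 cells reached 2 or more limits.

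Most genes differed little between within-limit cells and other neutrophils. Of 1952 genes with at least 500 UMIs over all neutrophils and no role in the limits, 66.2% lay within 0.25 of 0 on the log2 scale. Fold changes are log2 ratios of CPM with 10 CPM added to both values, averaged over 8 mice. In every mouse 233 genes were higher in within-limit cells (11.9%) and 92 were lower (4.71%). The cells were picked by their RNA, so these values are a description and carry no test.

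Ccl6, which encodes a CC chemokine of myeloid cells, was the marker with the largest difference from other neutrophils. Its level in within-limit cells was 7403, 6177, 8117 and 6977 CPM in Mono+MCTR3 mice and 7513, 8228, 8206 and 7239 CPM in Mono mice. The mean was 7483 ± 708 CPM in within-limit cells and 4767 ± 1012 CPM in other neutrophils (SD, n = 8), a log2 ratio of 0.67 with 8 of 8 mice higher. Jaml, an adhesion molecule that supports leukocyte crossing of epithelium, averaged 328 ± 109 CPM against 209 ± 76.6 CPM, also higher in 8 of 8 mice. Csf3r, the receptor for granulocyte colony-stimulating factor, averaged 665 ± 178 CPM against 448 ± 122 CPM, higher in 8 of 8 mice.

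The other markers were less distinct. Sirpb1b, a signal regulatory protein of myeloid cells, averaged 353 ± 117 CPM in within-limit cells and 258 ± 95.0 CPM in other neutrophils, higher in 8 of 8 mice. Its reads may be shared with near-identical genes of the same family, so its level is uncertain. Pla2g7, which encodes a phospholipase that breaks down platelet-activating factor, averaged 422 ± 175 CPM against 308 ± 127 CPM and was higher in 7 of 8 mice. Hcar2, the receptor for niacin and beta-hydroxybutyrate, averaged 762 ± 485 CPM against 760 ± 372 CPM and was higher in 3 of 8 mice, so it did not mark these cells.

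In the GRCm38 annotation (GENCODE vM21) the markers are protein-coding genes, Ccl6 at chr11:83587882-83593087 and Hcar2 at chr5:123863570-123865499 on the minus strand, Jaml at chr9:45079183-45108534 and Csf3r at chr4:126024550-126044440 on the plus strand, Sirpb1b at chr3:15495751-15575065 on the minus strand, and Pla2g7 at chr17:43568098-43612201 on the plus strand.

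The markers set within-limit cells apart from granule-limit cells, not from inflammatory-limit cells. Ccl6 averaged 7483 CPM in within-limit cells, 8030 CPM in neutrophils that reached only the inflammatory limit, and 264 CPM in those that reached only the granule limit. Against inflammatory-limit cells Ccl6, Hcar2, Sirpb1b and Pla2g7 were lower in within-limit cells in 8 of 8 mice, with log2 ratios of -0.10, -0.96, -0.36 and -0.48, where 7.68% of all genes were lower in 8 of 8 mice. Csf3r was lower in 7 of 8 mice, and Jaml was higher in 4. Against granule-limit cells, all 6 markers were higher in 8 of 8 mice, with a median log2 ratio of 4.16, where 38.6% of all genes were higher in 8 of 8 mice.

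**Figure D1:**
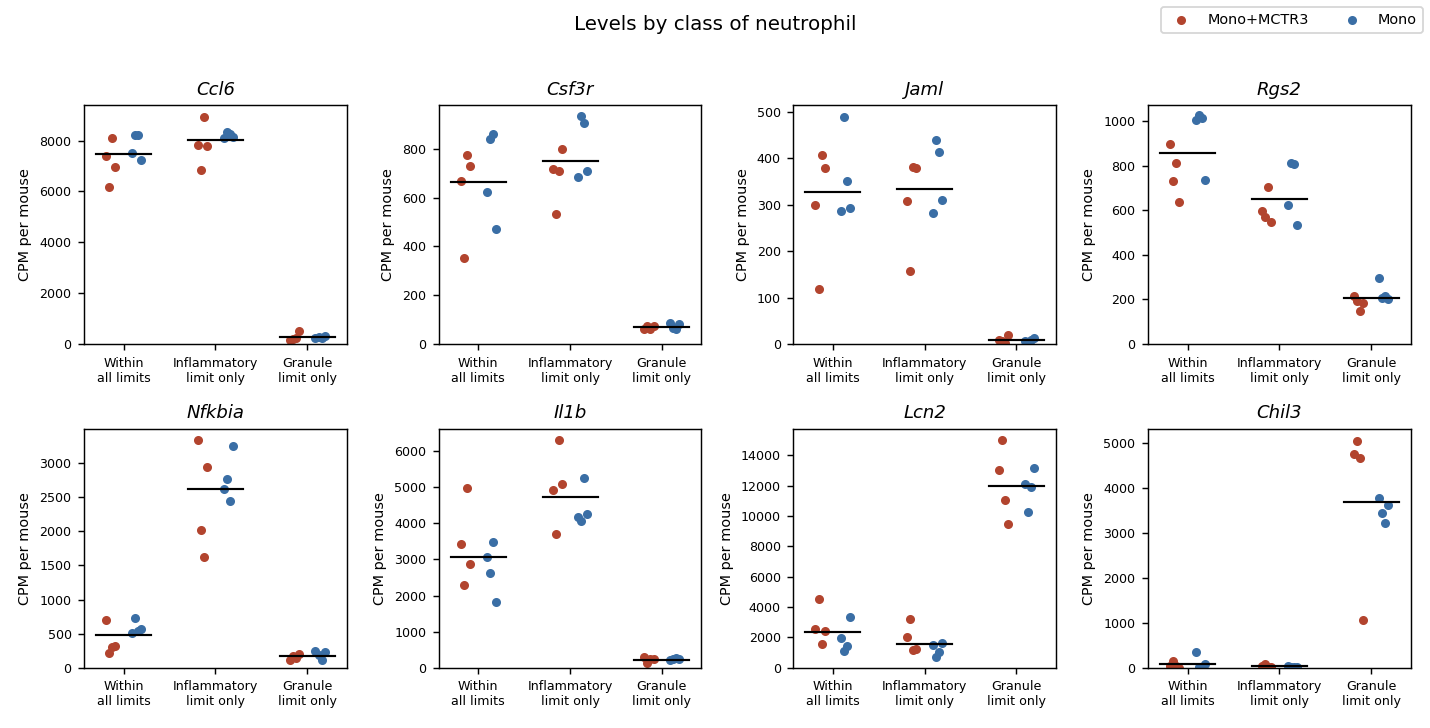
CPM of 8 genes (y axes, each from 0) in neutrophils within all limits, those that reached only the inflammatory limit and those that reached only the granule limit (x axis). Each point is 1 mouse, Mono+MCTR3 in red and Mono in blue, and the line is the mean of 8 mice. Ccl6, Csf3r and Jaml are near 0 only in granule-limit cells, whereas Nfkbia averages 484 CPM in within-limit cells and 2623 CPM in inflammatory-limit cells.

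Among the genes that led over other neutrophils was Rgs2, a brake on G protein signalling. Its level in within-limit cells was 898, 732, 809 and 637 CPM in Mono+MCTR3 mice and 1003, 1025, 1014 and 736 CPM in Mono mice. It averaged 857 ± 150 CPM, against 486 ± 94.2 CPM in other neutrophils and 649 ± 112 CPM in inflammatory-limit cells. Rgs2 was higher in within-limit cells in 8 of 8 mice in both comparisons, unlike the markers above. Retn, which encodes resistin, had a log2 ratio of 0.70 over other neutrophils. Others among the 10 highest were Ccl6, Jaml, Mir142hg, Gm16174, Tspan13, Gcnt2 and Creg1, with log2 ratios of 0.62 to 0.67. Gm16174 is annotated as an antisense gene, so its reads may belong to a gene on the other strand. Retnlg, a resistin-like gene of neutrophils, was also higher in 8 of 8 mice against other neutrophils, inflammatory-limit cells and granule-limit cells, with log2 ratios of 0.38, 0.35 and 1.09. Cells that reached only the stefin or only the interferon limit were closer. With every cell thinned to 500 UMIs, Retnlg was found in 96.9% of within-limit, 98.9% of stefin-limit and 90.6% of interferon-limit cells. For Rgs2 these shares were 33.8%, 28.3% and 34.0%, and the interferon-limit cells numbered only 53.

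Of the 10 genes lowest in within-limit cells, all but Nfkbia were also lower there than in granule-limit cells, on average. Chil3, a chitinase-like protein of maturing neutrophils, had 32.9, 147, 29.7 and 5.13 CPM in within-limit cells of Mono+MCTR3 mice and 351, 13.6, 27.4 and 73.1 CPM in those of Mono mice. Its mean was 85.1 ± 117 CPM against 1412 ± 670 CPM in other neutrophils (log2 ratio -4.47, lower in 8 of 8 mice). The highest mouse, at 351 CPM, was below the lowest mouse of the other neutrophils, at 407 CPM. Lta4h, which encodes the enzyme that makes leukotriene B4, averaged 15.5 ± 13.6 CPM against 104 ± 34.8 CPM. Cybb, the catalytic subunit of the phagocyte NADPH oxidase, averaged 111 ± 51.1 CPM against 346 ± 91.8 CPM, and Cebpe, a transcription factor needed for secondary granules, 43.5 ± 19.2 CPM against 142 ± 44.3 CPM. Fcnb, Serpinb1a, Zmpste24, Orm1 and Krt81 were the others among the 10 lowest besides Nfkbia, and Orm1 had 3 UMIs in all within-limit cells together. Against inflammatory-limit cells Chil3, Lta4h and Cybb were higher in 6 of 8 mice, so they did not set these 2 classes apart in that direction.

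Secondary granule genes placed within-limit cells between the other classes. Of the 7 genes of this list that the limits did not use and that could be compared, 7 were lower in 8 of 8 mice than in other neutrophils (median log2 ratio -1.29, against 0.08 over all genes compared), and 4 were higher in 8 of 8 mice than in inflammatory-limit cells (median 0.64, against -0.07). Over all genes, 1.84% were higher in 8 of 8 mice than in inflammatory-limit cells. Against granule-limit cells 7 of 7 were lower in 8 of 8 mice, where 9.73% of all genes were. Lcn2, an iron-scavenging granule protein, averaged 2380 CPM in within-limit cells, 1573 CPM in inflammatory-limit cells and 12006 CPM in granule-limit cells. Cd177 and Ly6g, surface molecules of neutrophils, showed the same order, with Ly6g at 394, 235 and 1082 CPM. Camp and Ngp, which the granule limit uses, averaged 1084 and 3640 CPM in within-limit cells and 507 and 1645 CPM in inflammatory-limit cells.

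Inflammatory genes outside the limits were lower than in inflammatory-limit cells, and most were above granule-limit cells. Nfkbia, which encodes the inhibitor IkappaB-alpha and is itself induced by NF-kappaB, had 698, 214, 308 and 318 CPM in within-limit cells of Mono+MCTR3 mice and 513, 724, 537 and 565 CPM in those of Mono mice. Its mean was 484 ± 187 CPM in within-limit cells and 2623 ± 587 CPM in inflammatory-limit cells, a log2 ratio of -2.48 with 8 of 8 mice lower. In granule-limit cells it was 176 ± 53.9 CPM. Tnfaip3 (the deubiquitinase A20), Nfkbiz (an atypical IkappaB protein) and Sod2 (mitochondrial superoxide dismutase) were also lower than in inflammatory-limit cells in 8 of 8 mice, with log2 ratios of -1.95, -1.74 and -1.72. Of the 17 genes of the inflammatory list that could be compared, 14 were lower in 8 of 8 mice (median log2 ratio -0.85), where 7.68% of all genes were. Against granule-limit cells 11 of the 17 were higher in 8 of 8 mice, where 38.6% of all genes were.

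Il1b was abundant in within-limit cells, though no resting neutrophils were there to compare with. Its level in within-limit cells was 3418, 2283, 4966 and 2865 CPM in Mono+MCTR3 mice and 3076, 2633, 3481 and 1827 CPM in Mono mice. The mean was 3069 ± 947 CPM, against 4718 ± 838 CPM in inflammatory-limit cells and 228 ± 49.2 CPM in granule-limit cells. With every cell thinned to 500 UMIs, an Il1b UMI was found in 64.5% of within-limit cells, 73.3% of inflammatory-limit cells, 9.64% of granule-limit cells and 13.3% of kept cells below the floor. Without thinning, the medians of depth were 1497, 1531.5, 4429.5 and 2478 UMIs, so the classes with the lowest shares were the deepest. After thinning, the share was 57.6% in stefin-limit cells and 67.9% in the 53 interferon-limit cells, so Il1b was not particular to within-limit cells. Cxcl2, a neutrophil-attracting chemokine capped by the limits, still averaged 500 ± 86.0 CPM in within-limit cells.

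Immediate early genes were also present. These transcription factors and regulators are switched on within minutes of a stimulus. Of 14 compared, 5 were higher in within-limit cells than in other neutrophils in 8 of 8 mice, where 11.9% of all genes were, and the median log2 ratio of the 14 was 0.32. The 5 were Btg2 (0.53), Fos (0.39), Nr4a1 (0.36), Jund (0.33) and Junb (0.32). None was lower in 8 of 8 mice. Against inflammatory-limit cells 0 were higher and 3 were lower in 8 of 8 mice, where 1.84% and 7.68% of all genes were. The median log2 ratio there was -0.28. Against granule-limit cells 12 of the 14 were higher in 8 of 8 mice (median 1.34), where 38.6% of all genes were. The excess over other neutrophils was thus not seen against inflammatory-limit cells.

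Receptors of mature neutrophils were mostly above granule-limit cells, and part of them were below inflammatory-limit cells. Cxcr2, the receptor for neutrophil-attracting chemokines, averaged 417 ± 76.0 CPM in within-limit cells, 423 ± 49.7 CPM in inflammatory-limit cells and 94.2 ± 30.8 CPM in granule-limit cells. Of the 25 receptors compared, 19 were higher than in granule-limit cells in 8 of 8 mice, where 38.6% of all genes were. Against inflammatory-limit cells 9 of the 25 were lower in 8 of 8 mice and 0 were higher, where 7.68% and 1.84% of all genes were. Cd14, a co-receptor for endotoxin, averaged 515 ± 90.7 CPM against 978 ± 186 CPM, and Il1r2, the decoy receptor for interleukin-1, 2476 ± 783 CPM against 4098 ± 573 CPM.

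Similar numbers of cells lay just inside and just outside the inflammatory limit. Sums of so few UMIs cannot tell a continuum from mixed states, which was not tested. The summed UMIs of Tnf, Ccrl2, Cxcl2, Csf1 and Gadd45b were 0 in 425 within-limit cells (32.4%), 1 in 368, 2 in 304 and 3 in 215. The 215 cells with 3 UMIs, just inside the limit, had 3303 CPM of Il1b and 752 CPM of Nfkbia when pooled. The 204 cells with 4 UMIs, just outside it, had 4180 CPM of Il1b and 1086 CPM of Nfkbia. Csf3r was at 752 CPM just inside and 705 CPM just outside. At the granule limit, cells just inside (2 to 3%) had 2126 CPM of Ccl6 and cells just outside (3 to 4%) had 1266 CPM, so the cells nearest that limit carried little of the leading marker.

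Along the inflammatory sum the median levels of Nfkbia and of the marker Hcar2 were highest at the top, while Ccl6, Csf3r and Jaml varied less. The median Nfkbia level over mice was 268 CPM at a sum of 0, 469.6 CPM at 1, 633 CPM at 2 and 512 CPM at 3, then 1101 CPM at 4 to 5, 1447 CPM at 6 to 9 and 3502 CPM at 10 or more. For Il1b the medians were 2642 CPM at 0 and 5287 CPM at 10 or more. Ccl6 stood at 6841 CPM at 0 and 8078 CPM at 10 or more, and Csf3r at 598 and 785 CPM. Hcar2 had medians of 430 CPM at 0, 840 CPM at 3 and 1537 CPM at 10 or more, and Jaml 317 CPM at 0 and 322 CPM at 10 or more. Cells with no UMI of the 5 genes held Il1b as well. The sum grows with depth, and the bins differed little in median depth (1379 to 1620.5 UMIs).

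**Figure D2:**
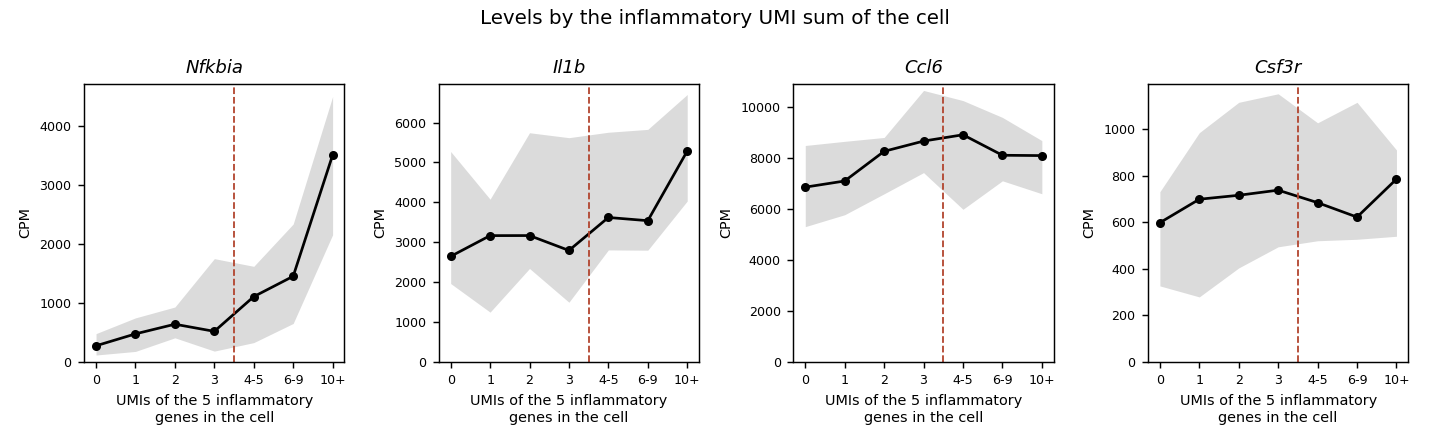
CPM of 4 genes (y axes, each from 0) by the summed UMIs of Tnf, Ccrl2, Cxcl2, Csf1 and Gadd45b in the cell (x axis), among neutrophils that met the other limits. The line joins medians of 8 mice, the band spans the lowest to the highest mouse, and the dashed line marks the limit at 4 UMIs. Nfkbia runs over medians of 268 to 3502 CPM, and Ccl6 stays between 6841 and 8895 CPM.

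The promoters of an inflammatory gene and of the leading marker are shown as examples, since their genes behave differently along this sum. The windows run from 250 bases before to 50 bases after the RefSeq transcription start (GRCm38.p6), both on the minus strand and written 5′ to 3′ along the gene. Nfkbia is at chr12:55492598-55492897 and Ccl6 at chr11:83593038-83593337. Capitals mark GGGANNNNCC, read on both strands, a core shared by many sites of NF-kappaB.
Nfkbia: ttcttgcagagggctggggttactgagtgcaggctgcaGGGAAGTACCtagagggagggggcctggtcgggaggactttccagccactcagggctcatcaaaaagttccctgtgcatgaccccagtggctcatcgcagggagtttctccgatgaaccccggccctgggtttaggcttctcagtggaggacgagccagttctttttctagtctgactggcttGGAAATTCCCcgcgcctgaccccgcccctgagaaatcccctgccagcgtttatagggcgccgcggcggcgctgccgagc
Ccl6: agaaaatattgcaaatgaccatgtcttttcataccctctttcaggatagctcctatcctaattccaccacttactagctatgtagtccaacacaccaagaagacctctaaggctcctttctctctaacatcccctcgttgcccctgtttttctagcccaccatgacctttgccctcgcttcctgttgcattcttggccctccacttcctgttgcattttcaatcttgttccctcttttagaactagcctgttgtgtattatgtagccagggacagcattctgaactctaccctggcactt
Nfkbia had 2 matches and Ccl6 had 0. Csf3r, a marker that also varied less along the sum, had 1 match, and 2 of the 5 markers with a window had a match. The letters were in 33.3% of genes with a log2 ratio over other neutrophils of at least 0.5. They were in 28.6% of those at -0.5 or lower. Counted by window, the letters were found in 20.7% of all 32851 windows of this length. The other shares are counted by gene, where a match in any window of the gene suffices. By gene they were found in 11 of 21 inflammatory list genes with a window. Of the compared genes with a window, 453 of 1541 had them (29.4%). A match describes the letters and is no evidence of binding.

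The share of within-limit cells did not differ between Mono+MCTR3 and Mono mice beyond the spread of the mice. The share of neutrophils was 20.8%, 16.7%, 22.1% and 20.7% in Mono+MCTR3 mice and 23.0%, 23.7%, 17.2% and 15.3% in Mono mice. The groups overlapped, with means of 20.1 ± 2.32% and 19.8 ± 4.17% (SD, n = 4 each), and the exact two-sided permutation test gave p = 0.971, where the smallest p possible is 0.0286. Of all kept cells the share was 13.8 ± 3.66% in Mono+MCTR3 mice and 12.6 ± 3.41% in Mono mice (exact permutation p = 0.6). With every cell thinned to 1000 UMIs, which leaves out 626 shallower cells, the share of neutrophils was 31.2 ± 2.81% in Mono+MCTR3 mice and 28.2 ± 8.48% in Mono mice (exact permutation p = 0.486).

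**Figure D3:**
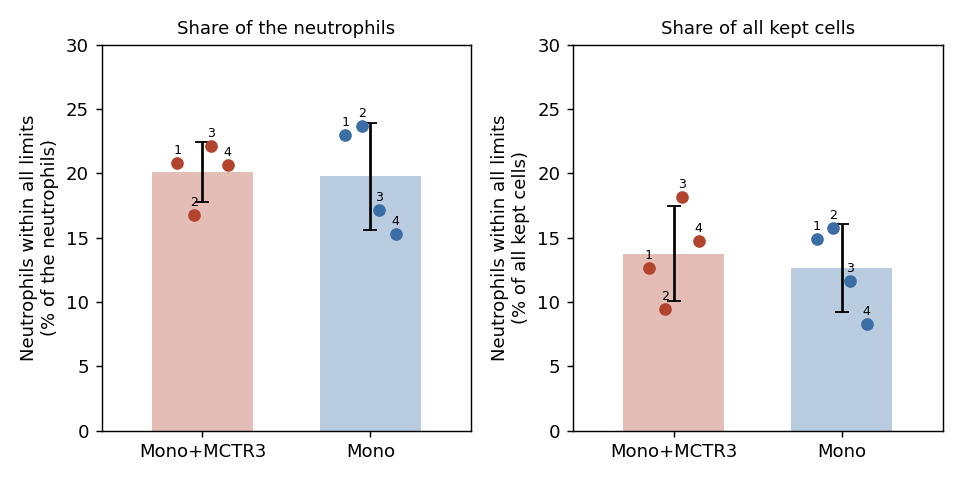
Within-limit cells as a percentage of neutrophils (left) and of all kept cells (right) on y axes from 0, in Mono+MCTR3 and Mono mice. Points are mice with their numbers, bars are means and error bars are SD (n = 4 each). Both groups overlap, at 16.7 to 22.1% and 15.3 to 23.7% of neutrophils.

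Within-limit cells numbered 112 to 183 per Mono+MCTR3 mouse and 110 to 248 per Mono mouse, with 194790 to 407301 and 182425 to 367637 UMIs to test. The authors aggregated the mice of each group separately, so levels set across the groups also compare 2 tables. Their median UMIs were 1619 ± 281 in Mono+MCTR3 mice and 1456 ± 239 in Mono mice (exact permutation p = 0.429). The median share of S100a8 and S100a9 was 27.4, 33.7, 23.1 and 25.4% in Mono+MCTR3 mice and 26.5, 15.3, 15.1 and 30.5% in Mono mice. Mono mice 2 and 3 were lower than the other 6.

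No gene passed the test between the groups. UMIs were summed per mouse over within-limit cells, and edgeR's quasi-likelihood test called 0 of 2007 genes (0%) at a Benjamini-Hochberg adjusted p under 0.05, the smallest adjusted p being 0.861. At an unadjusted p under 0.05 it gave 103 genes (5.13%), 42 higher (2.09%) and 61 lower (3.04%) in Mono+MCTR3 mice. DESeq2 and edgeR's likelihood ratio test also called 0, with 49 and 111 genes at an unadjusted p under 0.05. The groups did not overlap in 56 genes (2.79%). The quasi-likelihood test reports no standard error, so SE here is the absolute log2 fold change over the square root of the F statistic. Among the 469 genes with at least 500 UMIs its median was 0.15 on the log2 scale.

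The 6 markers gave log2 fold changes of Mono+MCTR3 over Mono near 0 except Hcar2. They were -0.04 for Ccl6 (SE 0.11), -0.07 for Csf3r (SE 0.19), -0.07 for Pla2g7 (SE 0.30), 0.01 for Sirpb1b (SE 0.24), -0.20 for Jaml (SE 0.26) and -0.59 for Hcar2 (SE 0.41). Hcar2 had 487, 211, 828 and 816 CPM in Mono+MCTR3 mice and 387, 1401, 1535 and 429 CPM in Mono mice. Mono mice 2 and 3 were above every other mouse, and Mono mice 1 and 4 lay within the Mono+MCTR3 range.

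The genes with the highest log2 fold changes, among those with at least 500 UMIs, did not pass the test, though with no filter on low counts edgeR called Lrg1 (adjusted p = 0.00412), Lcn2 (adjusted p = 0.034) and G0s2 (adjusted p = 0.0473). The unfiltered fit gave Lrg1 an SE of 0.20, below the 0.26 of the main fit, at nearly the same log2 fold change (0.91). Lrg1, a glycoprotein of neutrophil granules, had 260, 385, 212 and 400.4 CPM in Mono+MCTR3 mice and 206, 231, 121 and 141 CPM in Mono mice, which is 0.92 on the log2 scale (SE 0.26, edgeR adjusted p = 0.861). The groups overlapped in the range of 212 to 231 CPM. Trem3, an activating receptor of myeloid cells, had 559, 572, 534.5 and 544 CPM in Mono+MCTR3 mice and 477, 367, 384 and 458 CPM in Mono mice (0.48, SE 0.17). Hp, the haemoglobin-binding protein haptoglobin, had 2369, 2227, 2635 and 2901 CPM in Mono+MCTR3 mice and 2031, 1942, 1727 and 1997 CPM in Mono mice (0.47, SE 0.13). For Trem3 and Hp the groups did not overlap, yet the edgeR adjusted p was 0.861 for both. Lcn2, G0s2, Osm, Ifitm6, Wfdc21, Glrx and Gadd45a made up the rest of the 10, with 0.49 to 0.60. Leaving out 1 mouse gave 0.15 to 1.09 for Lcn2, 0.33 to 0.81 for G0s2, 0.21 to 0.77 for Osm, 0.14 to 0.74 for Ifitm6 and 0.20 to 0.67 for Wfdc21.

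Most of the lowest log2 fold changes leaned on Mono mice 2 and 3. With no filter on low counts edgeR called Wfdc17 (adjusted p = 3.11e-10), Jun (adjusted p = 0.00214), Ptafr (adjusted p = 0.00302), Ddit3 (adjusted p = 0.00338) and Plin2 (adjusted p = 0.00508). The log2 fold changes of Wfdc17 and Jun were almost the same in that fit (-1.23 and -0.92). Their SEs were 0.17 and 0.19 there, against 0.55 for both in the main fit, so these calls came without larger differences. An SE taken from the F statistic restates the test and is no separate measure of the spread of the mice. Wfdc17, a secreted protease inhibitor-like protein of myeloid cells, had 852, 241, 579 and 519 CPM in Mono+MCTR3 mice and 1032, 1994, 2445 and 112 CPM in Mono mice (-1.22, SE 0.55, edgeR adjusted p = 0.861). Ptafr, the receptor for platelet-activating factor, had 148, 106, 186 and 205 CPM in Mono+MCTR3 mice and 235, 484, 438.5 and 141 CPM in Mono mice (-0.94, SE 0.28). Jun, a subunit of the AP-1 factor, had 148, 108, 353 and 236 CPM in Mono+MCTR3 mice and 103, 585, 948 and 97.4 CPM in Mono mice (-0.92, SE 0.55). Ddit3 (a stress-induced factor) and Plin2 (a lipid droplet coat protein) followed, at -0.88 and -0.85, then Hcar2, Emd, Efhd2, Nfkbia and Vps37b at -0.59 to -0.52. Without Mono mice 2 and 3, a setting added after seeing the data, the log2 fold changes of Jun, Ddit3, Plin2, Hcar2 and Efhd2 were 0.99, 0.39, 0.27, 0.44 and 0.19, in the other direction. Adam8, a membrane protease, was chosen after its values were seen: its groups did not overlap, at 276, 260, 290 and 252 CPM in Mono+MCTR3 mice and 355, 373, 389 and 380 CPM in Mono mice (-0.37, SE 0.14, edgeR adjusted p = 0.861).

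**Figure D4:**
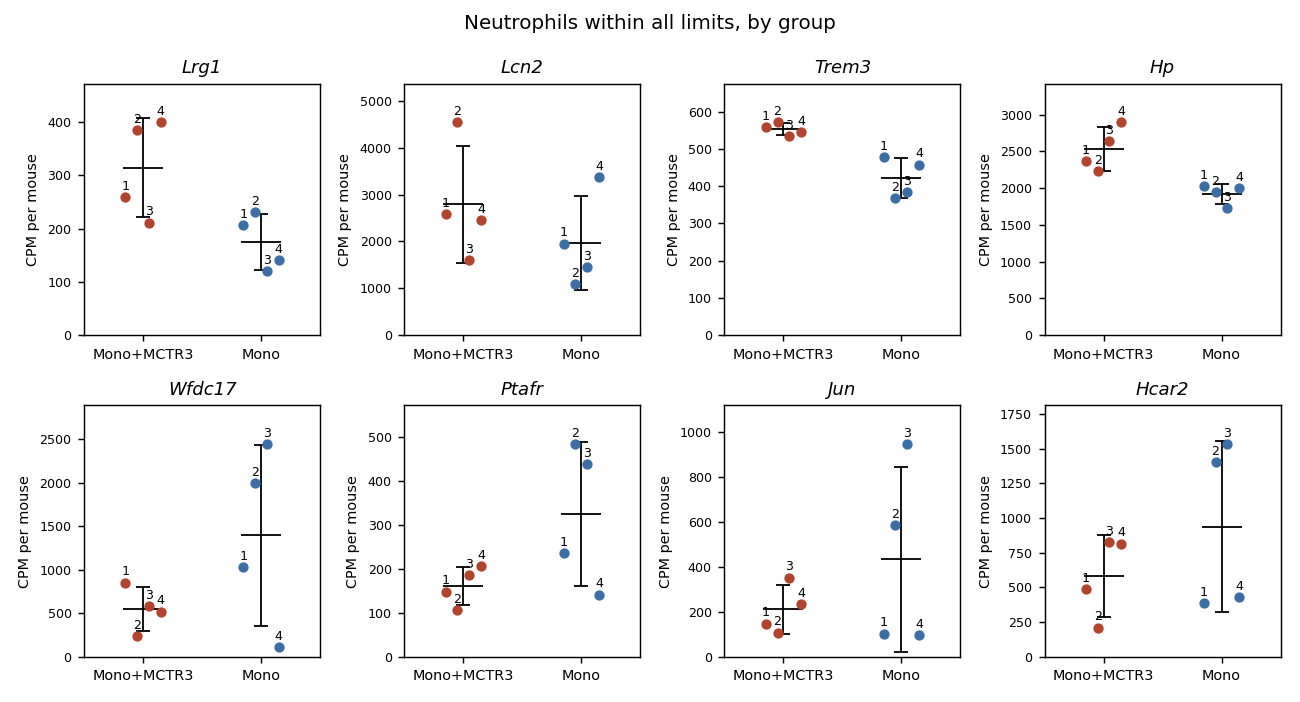
CPM of 8 genes (y axes, each from 0) in within-limit cells of Mono+MCTR3 and Mono mice (x axis). Points are mice with their numbers, the horizontal mark is the mean and the error bar the SD (n = 4 each). Trem3 and Hp do not overlap between groups, while Wfdc17, Jun and Hcar2 are highest in Mono mice 2 and 3.

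The 15 inflammatory genes tested had a median log2 fold change of -0.10, with 0 at an unadjusted p under 0.05, and the 25 mature receptors one of 0.01, with 0 higher and 4 lower at that p, where 2.09% and 3.04% of all genes were. The median over all genes tested was 0.00, and 50.9% of them had a positive log2 fold change. The 5 heat shock genes tested had a median of -0.35, with 0 of 5 positive and 1 lower at an unadjusted p under 0.05. The 14 immediate early genes had a median of -0.12, with 5 positive, and with 1 higher and 0 lower at that p. The 6 secondary granule genes had a median of 0.29, with 6 of 6 positive and 0 at an unadjusted p under 0.05. Il1b was 3383 ± 1153 CPM in Mono+MCTR3 mice and 2754 ± 709 CPM in Mono mice (0.38, SE 0.19, edgeR adjusted p = 0.861). The dendritic cell list summed to 95.4 to 601 CPM in Mono+MCTR3 mice and 101 to 200 CPM in Mono mice. Of its 2 genes tested, 1 was higher at an unadjusted edgeR p under 0.05. The part of this list in the results was not tested.

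Within-limit cells were also compared with other neutrophils in how they differed between the groups. In a fit with mouse as a block, edgeR called 0 of 3823 genes (0%), with 156 at an unadjusted p under 0.05 (4.08%), 71 higher (1.86%) and 85 lower (2.22%). DESeq2 and edgeR's likelihood ratio test also called 0, with 44 and 174 genes at an unadjusted p under 0.05. In other neutrophils themselves, 0 of 5033 genes (0%) were called, and 173 had an unadjusted p under 0.05 (3.44%), 68 higher (1.35%) and 105 lower (2.09%). Hp had a log2 fold change of 0.47 in within-limit cells and 0.19 in other neutrophils, a difference of 0.29 (SE 0.10), where the smallest adjusted p of any gene was 0.9999.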

How the data were processed

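Joint CD45+ leukocytes of 4 Mono+MCTR3 and 4 Mono C57BL/6 mice were profiled with the Chromium 3' kit. The authors aligned reads to GRCm38 with STAR in Cell Ranger. The sources used here name no version of these tools. The mice of each group were then aggregated, which the paper describes as giving normalised cells for the group. Whether depth was made equal between mice or between the groups is not stated. The authors deposited 1 table of UMI counts per group, with 28434 gene rows and 10538 barcodes in all. The members and gene lists were chosen with earlier results of these data known. UMIs were summed per mouse, and groups were compared with edgeR 4.0.16 (TMM, filterByExpr, quasi-likelihood test) in R 4.3.3, with Benjamini-Hochberg adjustment at 0.05. DESeq2 1.42.0 was an alternative. Scripts were tested on simulated data. Shares were compared with exact permutation tests over all splits of the mice, written in Python 3.11.15 with numpy 2.4.6. Scrublet (scanpy 1.11.5) marked 52 of 10256 cells (0.507%) as doublets, 4 of them within-limit, and they were kept. Genes were named if they were markers or limit genes, if they were among the 10 highest or lowest of a comparison with at least 500 UMIs, or if they were among the 4 members of a gene list with the most UMIs in within-limit cells. Other list members, among them Tnfaip3, Nfkbiz, Sod2, Fos, Jund, Nr4a1, Cd14, Ly6g, Cd177 and Ltb4r1, were named after their values were seen. Some genes that met the rule are not reported here. In all, 22 alternatives were set at the start, counting each mouse left out, and 3 were added after seeing the data. Where a range of mice is given, precision is limited by 4 mice per group.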

Additional observations from a re-analysis of the deposited data

Results flagged for a closer look

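Within groups of 4 mice, 7 of 92 groups held a mouse far from the other 3 by Dixon's criterion (7.61%), where chance gives about 5%. All values are CPM in within-limit cells. In Mono+MCTR3 mouse 2, Creg1 was at 314 CPM, below its group's other mice at 464 to 483 CPM. In the same mouse Lta4h was at 46.6 CPM (others 7.42 to 13.2), Serpinb1a at 204 CPM (others 59.2 to 71.9) and Fcnb at 49.1 CPM (others 0). The within-limit cell with 15032 UMIs held 13 of the 19 Lta4h UMIs, 46 of the 83 Serpinb1a UMIs and 20 of the 20 Fcnb UMIs of that mouse, but 3 of its 128 Creg1 UMIs. In Mono mice, Rgs2 was at 736 CPM in mouse 4 (others 1003 to 1025), Fcnb at 35.5 CPM in mouse 1 (others 0) and Orm1 at 5.48 CPM in mouse 3 (others 0).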

How the results depend on the processing

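The share of neutrophils was 0.303 percentage points higher in Mono+MCTR3 mice, and -0.359 with Camp, Ngp and Ltf under 1%. Leaving out 1 mouse gave -1.19 to 1.6 for that share and -0.338 to 2.57 for the share of kept cells. No gene was called between groups in within-limit cells by edgeR under any setting but one: with no filter on low counts 20 of 10275 genes were called, of which Elane, Mpo, Prtn3, Ctsg, Ms4a3 and Hspb1 had over 96% of their UMIs in 1 mouse, and 8 were among the genes named by group: Lrg1, Lcn2, G0s2, Wfdc17, Ptafr, Jun, Ddit3 and Plin2, each with 27.3% to 41.6% in 1 mouse. For the difference from other neutrophils, 8 genes were called with no filter, 1 with no upper limit on genes per cell, 3 without Mono mice 2 and 3 (added after seeing the data), and 0 to 3 with 1 mouse left out. The causes were not tested. Without Mono mice 2 and 3 the log2 fold changes turned to 0.99 (Jun), 0.39 (Ddit3), 0.27 (Plin2), 0.44 (Hcar2), 0.19 (Efhd2), 0.14 (Csf3r) and 0.54 (Pla2g7). With every cap lowered by 2 UMIs they were 0.060 for Jaml, 0.041 for Csf3r and 0.035 for Pla2g7. Without cells holding 2 or more UMIs of other cell types they were 0.0067 for Ccl6 and -0.044 for Sirpb1b. Library totals gave -0.087 for Sirpb1b, and Camp, Ngp and Ltf under 1% gave 0.011 for Pla2g7. With 1 mouse left out the values ran over -0.35 to 0.053 for Jaml, -0.16 to 0.10 for Csf3r, -0.13 to 0.22 for Sirpb1b and -0.30 to 0.21 for Pla2g7. Of 525 values for 25 named genes, 25 turned, and 15 genes did not turn under any setting run. Of 216 values of within-limit cells over other neutrophils, 1 turned, Hcar2 at 0.12 with Camp, Ngp and Ltf under 1%. Library totals moved the median gene by -0.10. No paired analysis was possible because the labels give the groups no shared replicate numbers and the mice are different animals. The limits are in UMIs, and genes under the filter on low counts were not tested.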

Other observations

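Other gene groups also held differences between within-limit cells and other neutrophils, described here with no test, where 11.9% of all genes were higher and 4.71% lower in 8 of 8 mice. Among survival genes, Mcl1, an anti-apoptotic protein, was higher in 8 of 8 mice (log2 ratio 0.35), and Bcl2a1b, whose reads may be shared with near-identical copies, was lower in 8 of 8 (-0.77). Rac1, a small GTPase that takes part in the NADPH oxidase, was higher in 8 of 8 mice (0.28). In the lipid mediator list Alox5ap, which presents arachidonic acid to 5-lipoxygenase, was slightly higher in 8 of 8 mice (0.14), whereas Ltb4r1, the leukotriene B4 receptor, was lower in 8 of 8 (-1.02). Cxcr4, a receptor that retains neutrophils in bone marrow, had 0.46 and was higher in 7 of 8 mice. Ldha, the lactate dehydrogenase subunit of glycolysis, was lower in 8 of 8 mice (-0.58). The other neutrophils pool several classes, so these ratios do not make a gene particular to within-limit cells. With every cell thinned to 500 UMIs, Ltb4r1 was found in 4.50% of within-limit, 4.25% of stefin-limit and 18.1% of granule-limit cells. In the same order the shares were 11.9%, 12.6% and 27.0% for Ldha and 21.8%, 19.8% and 5.71% for Mcl1. For Bcl2a1b they were 3.1%, 2.4% and 1.6%.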
